A study of Homo sapiens with 16 samples.

Results

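The OAS family was described here as the 4 genes OAS1, OAS2, OAS3 and OASL, taken by symbol from a table of 78894 genes and other features in human T47D cells. T47D is an established line of estrogen receptor-positive luminal breast cancer. All 4 symbols were found once each, and all 4 were among the 16218 features that passed the filter on low values, which asked for at least 1 count per 1000000 assigned reads (CPM) in at least 4 libraries. The study crossed genotype with treatment. Cells had either a control guide or the FAH gene knocked out; FAH encodes fumarylacetoacetate hydrolase, the last enzyme of tyrosine breakdown. They were given vehicle (DMSO in the titles) or 500 nM abemaciclib, which blocks CDK4 and CDK6, kinases of the cell cycle, for 3 days, and all 4 groups grew in the same high-glucose medium with serum. Each group had 4 libraries, 16 in all. Which guides were used, and whether the knockout was 1 clone or a pool, is not given in the sources used here. The labels do not tie the 4 libraries to separate cultures, so a p-value here measures only the spread from library to library, and that spread may be technical.

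OAS1, OAS2 and OAS3 are enzymes that bind double-stranded RNA and then make short chains of adenylate joined by 2'-5' bonds, called 2-5A. 2-5A is a messenger of the antiviral response. The family members differ in how many copies of the enzyme's domain they carry, and OAS3 binds long double-stranded RNA most tightly. OASL has lost the enzyme activity. It carries ubiquitin-like repeats at its end, and acts with the RNA sensor RIG-I. All 4 genes are textbook interferon-stimulated genes: interferon receptors activate the kinases JAK1 and TYK2, and a factor complex that holds STAT2 and IRF9 then binds the interferon-stimulated response element (ISRE) in promoters.

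The genes lie on human chromosome 12, at positions given here from RefSeq on GRCh38.p14. OAS1 (ENSG00000089127) spans 112906962 to 112933219, OAS3 (ENSG00000111331) 112938474 to 112973251 and OAS2 (ENSG00000111335) 112978519 to 113011723, all on the plus strand. They stand head to tail, with 5254 bases between OAS1 and OAS3 and 5267 between OAS3 and OAS2. OASL (ENSG00000135114) is on the minus strand at 121017761 to 121039246, which is 8006037 bases beyond OAS2. In GENCODE 29 the antisense gene ENSG00000257452 lies across OAS1, OAS3 and OAS2. It was listed at 0 CPM in all 16 libraries, but how strand was treated in the counting is not stated in the labels, and without strand its reads and theirs cannot be told apart.

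The promoters of OAS1 and OAS3, neighbours on the chromosome, are shown because the family is known for its interferon-responsive promoters. Those of OAS2 and OASL were not analysed here. Each runs from 250 bases before to 50 bases after the gene's start, from RefSeq on GRCh38.p14, on the plus strand, at chr12:112906712-112907011 for OAS1 and chr12:112938224-112938523 for OAS3. Capitals mark the matches to any of the motifs named after the sequences.
OAS1: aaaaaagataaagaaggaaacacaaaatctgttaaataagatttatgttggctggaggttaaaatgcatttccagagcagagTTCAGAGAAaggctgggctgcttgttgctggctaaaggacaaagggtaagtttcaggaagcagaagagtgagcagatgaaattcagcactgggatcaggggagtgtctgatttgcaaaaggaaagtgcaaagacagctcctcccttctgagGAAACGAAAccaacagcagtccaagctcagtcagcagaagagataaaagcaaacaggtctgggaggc
OAS3: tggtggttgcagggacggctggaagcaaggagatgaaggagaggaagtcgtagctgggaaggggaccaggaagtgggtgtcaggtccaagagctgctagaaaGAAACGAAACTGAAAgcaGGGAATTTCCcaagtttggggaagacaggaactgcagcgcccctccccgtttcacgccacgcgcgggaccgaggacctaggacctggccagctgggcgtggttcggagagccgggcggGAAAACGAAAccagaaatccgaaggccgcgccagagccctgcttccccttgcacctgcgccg

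Motifs were searched on both strands. The ISRE was taken as GAAA, any 2 bases, and GAAA again. OAS3 held 2 matches, GAAACTGAAA from base -143 to -134 and GAAAACGAAA from -12 to -3, counted from the start of the gene. Of 35116 human promoter windows of this length, 1255 (3.57%) held at least 1 match and 91 (0.259%) held 2 or more. OAS1 held no match to this pattern, which does not show that the gene lacks an ISRE. With 1 spacer base fewer (GAAANGAAA, where N is any base) OAS1 held GAAACGAAA from -17 to -9, a form present in 1097 windows (3.12%). OAS3 held the same letters from -148 to -140, overlapping its first ISRE match. The gamma-activated site, an element of the interferon gamma response, was searched as TTCNNNGAA. OAS1 had 1 match, TTCAGAGAA from -168 to -160, and 2689 windows (7.66%) had one. OAS3 also held an NF-kappaB type sequence from -130 to -121, in capitals there, whose exact letters were found in 51 windows (0.145%). This sequence and GAAANGAAA were added to the search after the sequences had been read. A match describes letters only and is not a binding site.

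**Figure D1:**
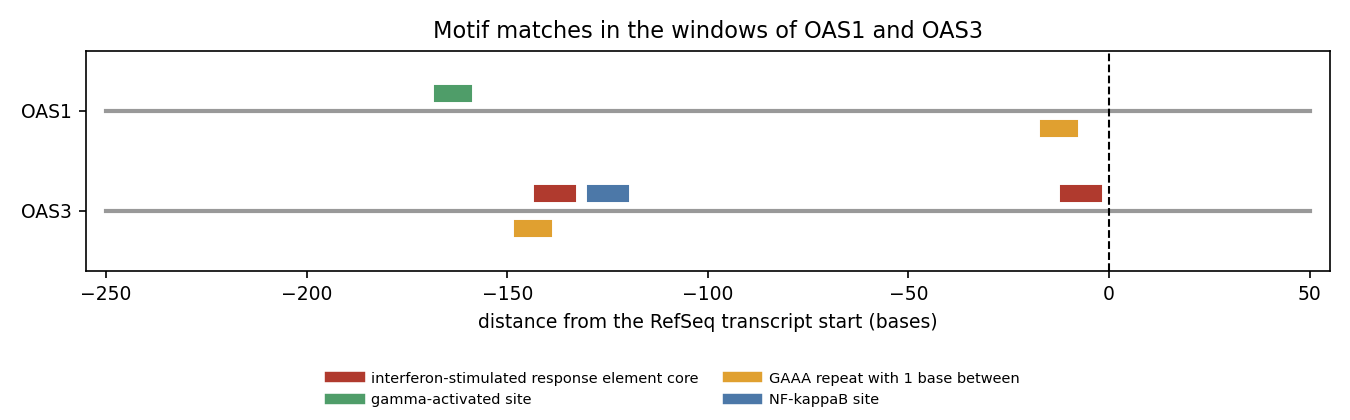
Motif matches in the promoter windows of OAS1 and OAS3, by distance in bases from the gene's start, with the dashed line at the start. Both genes have a GAAA-type match within 17 bases before the start, and OAS3 has a second group of matches from base -148 to -121.

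The libraries held 9915776 to 11963093 assigned reads, so 1 CPM stood for about 10 reads. Reads of the members numbered 94 to 491 for OAS1, 75 to 340 for OAS2, 418 to 1112 for OAS3 and 40 to 214 for OASL. Values that came out as whole reads within 0.02 reads were found in 16 libraries for OAS2, 15 for OAS1, 14 for OASL and 8 for OAS3. OAS3 is therefore uncertain, since fractions can arise where a read is divided between features. FAH itself fell, as its label says, from 26.5 ± 1.57 CPM (SD, n = 4) in control cells under vehicle to 6.65 ± 0.323 in knockout cells, and from 23.97 ± 1.35 to 5.76 ± 0.744 under abemaciclib. Its exact two-sided permutation p was 0.0286 in both, the smallest that 4 against 4 libraries allow. The 9 luminal markers summed to 9415 to 9582 CPM in control cells under vehicle, 11231 to 11675 with abemaciclib, 13085 to 13482 in knockout cells under vehicle and 15742 to 16012 with both. These markers did not move as one: between control and knockout cells under vehicle the keratin KRT8 went from 2700 ± 27.6 to 5048 ± 115 CPM (SD, n = 4), and the estrogen receptor gene ESR1 from 97.3 ± 3.24 to 76.1 ± 3.18. The 8 leukocyte markers summed to 3.28 to 6.69 CPM, and 5 of them (CD3E, CD14, ITGAM, CSF1R and NKG7) stayed under 1 CPM everywhere. PTPRC, the pan-leukocyte marker, had at most 1.70 CPM. Of 5 stromal and endothelial markers 4 stayed under 1 CPM, and COL1A1 had 41.9 ± 1.45 CPM in control cells under vehicle, 53.1 ± 5.09 with abemaciclib, 53.8 ± 4.58 in knockout cells and 58.6 ± 1.84 with both. The part of these marker sums in the results was not tested. The labels name no batch.

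All 4 OAS genes rose in the FAH knockout under vehicle, by 2.14 to 3.90 times in mean CPM. OAS1 rose most, and no difference between the rises of the other three passed its test. In bulk RNA, more RNA in each cell and more cells with the RNA cannot be told apart.

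OAS1, the short 2-5A synthetase, had 11.02, 9.82, 9.48 and 10.3 CPM in the control libraries under vehicle, and 39.3, 41.6, 41.3 and 36.3 CPM in the knockout libraries. Every knockout library was above 3 times the highest control library. On the log2(CPM + 1) scale, where changes of low genes come out too small, the difference was 1.87 (SE 0.0627, limma, adjusted p = 7.5e-22). It ranked 4 from the top among the 16218 features by size of rise.

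OAS2, the intermediate synthetase, had 7.56, 8.93, 9.58 and 9.05 CPM in control cells and 20.6, 20.2, 22.2 and 22.5 CPM in knockout cells. The groups lay far apart, with every knockout library above 20 CPM and every control library under 10 CPM. The log2 difference was 1.198 (SE 0.0688, limma, adjusted p = 1.0e-15). OASL, the family member without enzyme activity, had 4.03, 4.86, 5.95 and 6.03 CPM in control cells and 13.8, 15.01, 14.7 and 13.5 CPM in knockout cells, again without overlap. Its log2 difference was 1.31 (SE 0.0884, limma, adjusted p = 6.8e-14). The control libraries of OASL had the widest spread of the family, with a coefficient of variation of 18.3% where counting alone gives 13.7%.

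OAS3, the long synthetase, had 42.1, 49.7, 45.2 and 44.0 CPM in control cells and 87.8, 101, 99.6 and 99.2 CPM in knockout cells. The lowest knockout library, replicate 1, stood apart from its 3 neighbours but was still well above all controls. The log2 difference was 1.08 (SE 0.0516, limma, adjusted p = 6.8e-18), and 1.13 without that library.

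These 4 calls in the higher direction stand beside a background in which 37.7% of all tested features were called in the same comparison, 24.6% higher and 13.1% lower. After median-of-ratios rescaling the 2 shares were 17.4% and 18.4%, and the 4 members stayed higher. Exact two-sided permutation tests gave each member p = 0.0286, the smallest possible, since no groups overlapped. The share of all features without overlap was not counted, in this or any later comparison.

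**Figure D2:**
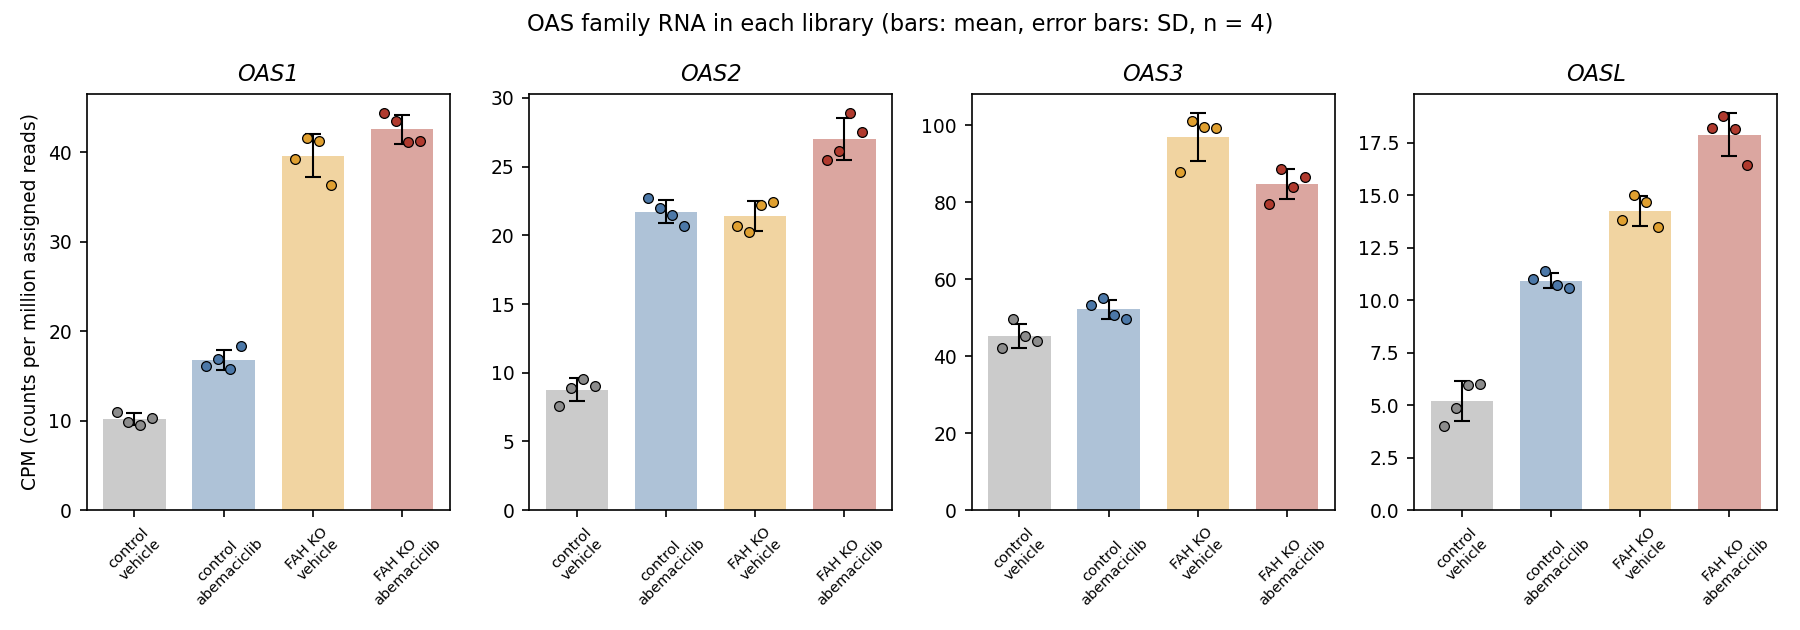
CPM of OAS1, OAS2, OAS3 and OASL in the 16 libraries, 4 in each group, with group means and SD bars on axes from 0. Knockout libraries are above the control libraries of the same treatment for each gene, and OAS2 in control cells with abemaciclib (20.7 to 22.7 CPM) lies at the level of knockout cells with vehicle (20.2 to 22.5 CPM).

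Abemaciclib raised all 4 genes in control cells, but by very different amounts. OAS2 went from the 7.56 to 9.58 CPM given above to 22.7, 21.99, 21.5 and 20.7 CPM. OASL went to 11.02, 11.4, 10.7 and 10.6 CPM, and OAS1 to 16.2, 16.9, 15.8 and 18.3 CPM. None of these libraries overlapped with the vehicle libraries of its gene. The rises were 1.2201 for OAS2 (SE 0.0688, limma, adjusted p = 1.5e-16), 0.95 for OASL (SE 0.0884, limma, adjusted p = 4.6e-11) and 0.67 for OAS1 (SE 0.0627, limma, adjusted p = 4.9e-11), on the log2 scale.

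OAS3 moved least. Its libraries had 53.2, 55.1, 50.6 and 49.6 CPM with abemaciclib, against 42.1 to 49.7 CPM with vehicle. The lowest treated library was thus just under the highest untreated one. The log2 difference was 0.20 (SE 0.0516, limma, adjusted p = 0.00141), while the exact two-sided permutation test gave p = 0.0571. The 4 members called higher compare with 50.7% of features called in this comparison, 19.6% higher and 31.1% lower, or 25.7% and 24.8% after rescaling.

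In knockout cells the change with abemaciclib was less positive for each gene. OAS2 had 25.5, 26.1, 28.9 and 27.5 CPM with both, all above the 20.2 to 22.5 CPM of knockout cells with vehicle, a rise of 0.32 (limma, adjusted p = 0.000289). OASL had 18.2, 18.8, 18.2 and 16.4 CPM, all above 13.5 to 15.01 CPM, a rise of 0.31 (limma, adjusted p = 0.00555). These were the 2 genes with the largest rises in control cells.

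For OAS1 and OAS3 no rise passed the test on the deposited scale. OAS1 had 44.4, 43.5, 41.2 and 41.2 CPM with both, overlapping with the 36.3 to 41.6 CPM with vehicle, and its difference was 0.10, with a 95% interval from -0.03 to 0.23 (limma, adjusted p = 0.210). This call depends on the scaling: it was 0.19 after rescaling (limma, adjusted p = 0.0171) and 0.19 after quantile normalization (limma, adjusted p = 0.0157). OAS3 had 79.6, 88.6, 83.9 and 86.5 CPM with both, overlapping with the 87.8 to 101 CPM with vehicle through replicate 1. Its fall was -0.19 (95% interval -0.30 to -0.09, limma, adjusted p = 0.00329), and -0.10 after rescaling (limma, adjusted p = 0.108), where it no longer passed. The exact permutation tests gave 0.171 for OAS1 and 0.0571 for OAS3. Of all features 38.4% were called here, 11% higher and 27.4% lower, or 19.6% and 17.8% after rescaling.

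Under abemaciclib, knockout cells still had more of every member than control cells. OAS1 was at 41.2 to 44.4 CPM against 15.8 to 18.3 CPM, OAS3 at 79.6 to 88.6 against 49.6 to 55.1, OASL at 16.4 to 18.8 against 10.6 to 11.4, and OAS2 at 25.5 to 28.9 against 20.7 to 22.7. No library of the 2 genotypes overlapped for any member, and how many of all features had no overlap was not counted. The log2 differences were 1.29 for OAS1 (limma, adjusted p = 1.6e-17), 0.69 for OAS3 (limma, adjusted p = 1.1e-12), 0.66 for OASL (limma, adjusted p = 3.7e-07) and 0.30 for OAS2 (limma, adjusted p = 0.000935). The background had 29.9% of features called, 18.6% higher and 11.3% lower, or 13.1% and 14.8% after rescaling.

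For each gene the combination gave less than the single effects together. The interaction, which is the abemaciclib effect in knockout cells minus that in control cells, was -0.57 for OAS1 (SE 0.0887, limma, adjusted p = 2.4e-05), -0.90 for OAS2 (SE 0.0973, limma, adjusted p = 5.5e-08), -0.39 for OAS3 (SE 0.0729, limma, adjusted p = 0.000302) and -0.64 for OASL (SE 0.125, limma, adjusted p = 0.000497). Of all features 10.8% were called for the interaction, 4.68% positive and 6.16% negative. On the linear scale, abemaciclib added 12.9 CPM of OAS2 to control cells and the knockout 12.6 CPM, and both together 18.2 CPM, against a sum of 25.6 CPM. For OAS3 the 2 single differences were 6.87 and 51.6 CPM, and both together gave 39.4 CPM against a sum of 58.5 CPM. OAS1 came closer, with 32.4 CPM for both against 36.1 CPM, and so did OASL, with 12.7 against 14.7 CPM. No test was made of the sums on the linear scale.

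**Figure D3:**
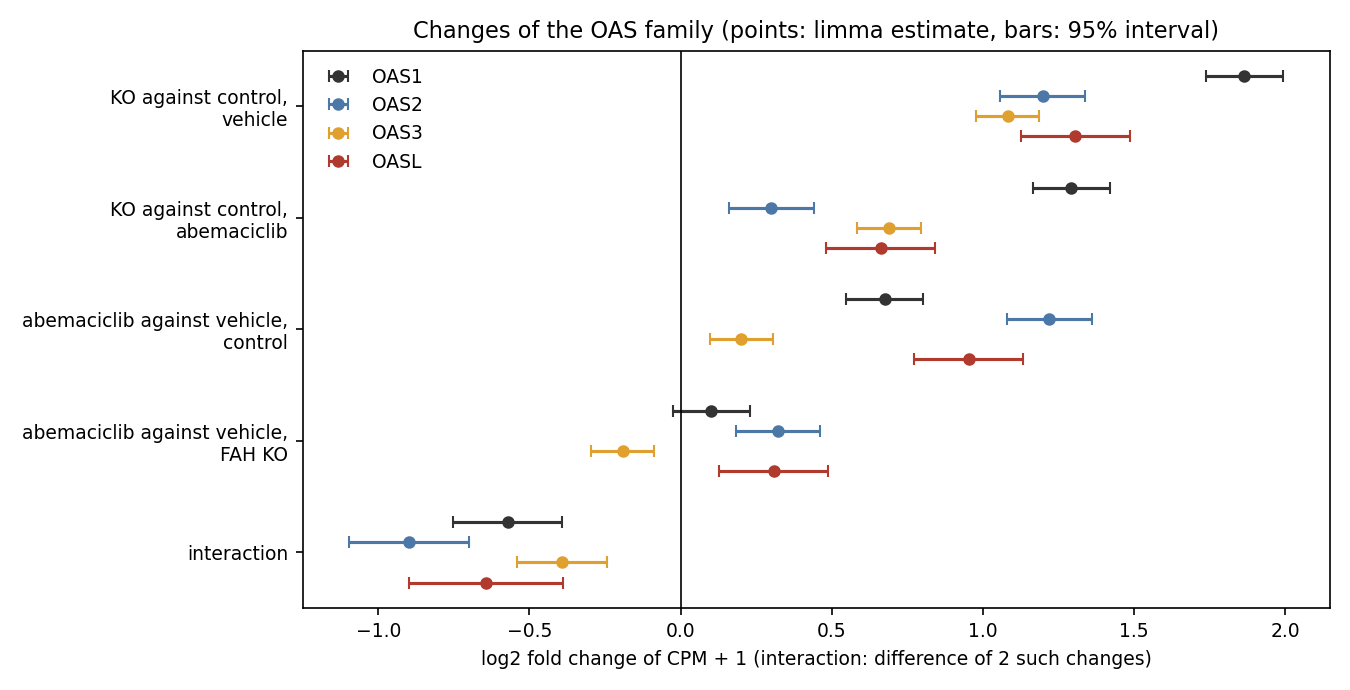
Log2 differences of OAS1, OAS2, OAS3 and OASL in the 4 comparisons and the interaction, on the log2(CPM + 1) scale, with 95% intervals from limma. The interaction is below 0 for each gene, and the abemaciclib effect in knockout cells is near 0 for OAS1 and below 0 for OAS3.

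The order of the groups also differed between genes. OASL rose stepwise, from control with vehicle (5.22 ± 0.953 CPM, SD, n = 4) through control with abemaciclib (10.9 ± 0.356) and knockout with vehicle (14.3 ± 0.715) to both (17.9 ± 1.01), with no overlap between neighbours. OAS1 had the order 10.1 ± 0.667, 16.8 ± 1.11, 39.6 ± 2.43 and 42.6 ± 1.61 CPM, of which the last 2 overlapped. OAS2 had 8.78 ± 0.858 in control with vehicle and 27.01 ± 1.501 with both, and between them the single treatments overlapped, at 21.7 ± 0.837 with abemaciclib and 21.4 ± 1.11 in the knockout. OAS3 had 45.3 ± 3.21 CPM with vehicle and 52.1 ± 2.47 with abemaciclib in control cells, and 84.7 ± 3.87 with abemaciclib and 96.9 ± 6.16 with vehicle in knockout cells. Its libraries overlapped within each genotype and not between them.

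The single perturbations were therefore set against each other, by a contrast chosen after the data had been seen. Knockout cells with vehicle exceeded control cells with abemaciclib by 1.19 for OAS1 (limma, adjusted p = 3.1e-17), 0.88 for OAS3 (limma, adjusted p = 5.4e-16) and 0.35 for OASL (limma, adjusted p = 0.00118). OAS2 differed by -0.02, with a 95% interval from -0.16 to 0.12 (limma, adjusted p = 0.816). The median of all tested features in this contrast was 0.117, and 49.6% of features were called, 37.8% higher and 11.8% lower, against 22% and 22.3% after rescaling. Read against that median, OAS2 lay slightly below it. Under quantile normalization OAS2 was at -0.16 (limma, adjusted p = 0.0487) and OASL at 0.20 (limma, adjusted p = 0.0595), so both calls turn on the scaling.

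Whether 2 members changed by different amounts was tested within libraries, as the difference of their log2(CPM + 1) values, by exact two-sided permutation tests over 6 pairs in each of the 4 comparisons. Of the 24 tests, 17 passed after adjustment over the 24, each at the smallest possible exact permutation p of 0.0286, adjusted to 0.0403. The adjusted value is under 0.05 only because many of the tests tied at this smallest p. The 6 pairs of a comparison share 4 genes and are not independent. How many other pairs of genes differ in this way was not counted. In the knockout under vehicle, OAS1 rose more than OAS2 by 0.67, more than OAS3 by 0.78 and more than OASL by 0.56. The call of OAS1 over OASL depends on the pseudocount: with 0.1 the libraries of the 2 groups overlapped for this pair, and it did not pass. The remaining 3 pairs did not pass, with differences of 0.12 for OAS2 over OAS3, -0.11 for OAS2 over OASL and -0.22 for OAS3 over OASL. With abemaciclib in control cells the order was another: OAS2 rose more than OAS3 by 1.02, more than OAS1 by 0.55 and more than OASL by 0.27, and OASL rose more than OAS3 by 0.75. OAS1 and OASL did not differ past the threshold there (-0.28, exact permutation, adjusted p = 0.108). In knockout cells with abemaciclib, the change of OAS3 lay below that of OAS2 by 0.51, OASL by 0.50 and OAS1 by 0.29, and that of OAS1 lay below OASL by 0.21. For the knockout under abemaciclib, OAS1 again rose more than OAS2 (0.99), OAS3 (0.60) and OASL (0.63), and OAS2 rose less than OAS3 (-0.39) and OASL (-0.36).

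**Figure D4:**
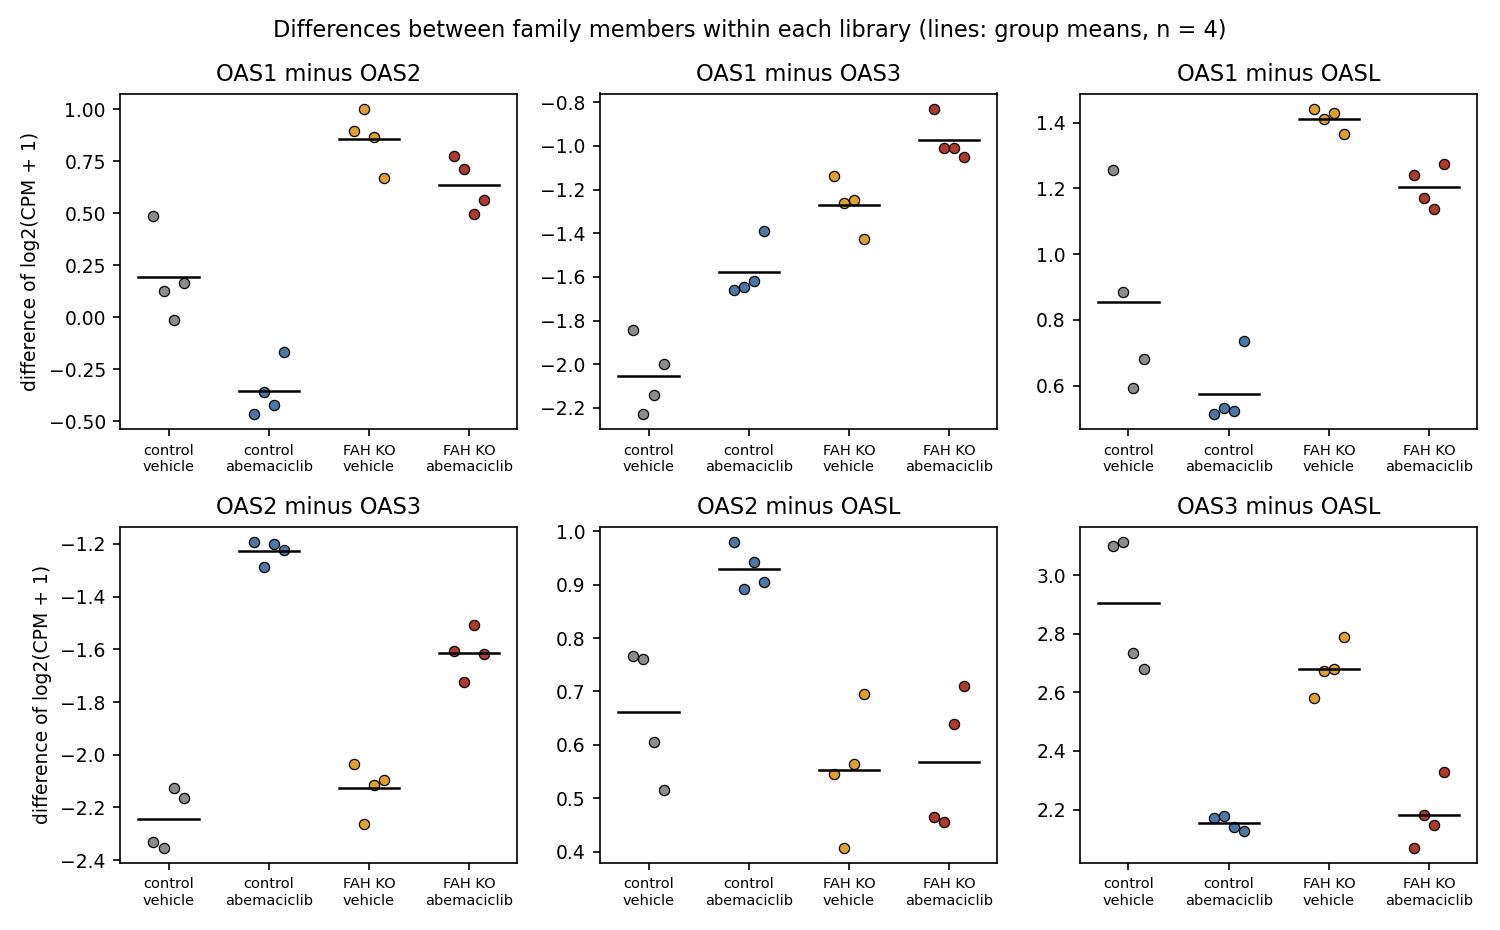
Difference of log2(CPM + 1) between 2 members within each library, 1 panel a pair, with the 4 libraries of each group as points and lines at the group means; the axes do not start at 0 and differ between panels. By group mean, the OAS1 panels are highest in knockout cells, and OAS2 minus OAS3 and OAS2 minus OASL are highest in control cells with abemaciclib.

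Of 3 further genes of the 2-5A pathway, none passed in the knockout in either treatment: ABCE1, which also recycles ribosomes, PDE12, a phosphodiesterase that degrades 2-5A, and AKAP7, an anchoring protein of kinases. Of all features 37.7% were called in the knockout under vehicle and 29.9% under abemaciclib, so most features did not pass either. ABCE1 did pass as lower under vehicle after rescaling (-0.14, limma, adjusted p = 0.0244).

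A list of 44 genes of the pathway other than the members was described by role, of which 32 passed the filter. The list was chosen with earlier results of these data known, so its counts beside the shares of all features are description only. In the knockout under vehicle 18 were higher and 1 lower, beside 24.6% and 13.1% of all features (17.4% and 18.4% after rescaling). The list's median log2 difference was 0.24 against 0.06 for all features. All 8 tested genes of double-stranded RNA sensing were higher, of which DHX9 no longer passed after rescaling (0.10, limma, adjusted p = 0.0555). RIGI, the RNA sensor with which OASL acts, rose by 1.36, IFIH1, the sensor MDA5, by 1.04, TLR3 by 0.66, DHX58 by 0.63, EIF2AK2, the kinase PKR, by 0.50 and ADAR, the RNA editor, by 0.46. RIGI, EIF2AK2, ADAR, MAVS, IRF9, JAK1 and ABCE1 had whole reads in 8 or fewer libraries and are uncertain. Of 7 transcription factors 6 were higher, among them IRF7 by 0.73, IRF9 by 0.61 and IRF1 by 1.38, from 3.76 ± 0.366 to 11.4 ± 0.385 CPM (SD, n = 4). The receptor kinases parted: TYK2 rose by 0.65, while JAK1 fell by 0.64, from 118 ± 2.69 to 75.1 ± 3.51 CPM. ISG15, a ubiquitin-like interferon-stimulated gene, rose by 1.70, from 52.9 ± 1.08 to 174 ± 5.22 CPM.

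With abemaciclib in control cells 15 of the 32 were higher and 5 lower, beside 19.6% and 31.1% of all features, and the list's median was 0.10 against -0.05 for all features. The lower genes included 3 of the 2-5A pathway: AKAP7 by -0.68, ABCE1 by -0.31 and PDE12 by -0.17, the last of which was lost in 9 of 25 alternatives. IRF1 differed by 0.05 there (limma, adjusted p = 0.723), while the knockout had raised it by 1.38. In knockout cells 5 were higher and 6 lower with abemaciclib, beside 11% and 27.4% of all features. The 6 included DHX9, by -0.34. After rescaling 9 were higher and 3 lower, beside 19.6% and 17.8% of all features. The list's median before rescaling was 0.01 against -0.07 for all features. Under abemaciclib, knockout cells had 15 higher and 1 lower, beside 18.6% and 11.3% of all features, with a median of 0.18 against 0.04.

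The interaction was negative for 10 of the 32 genes and positive for none at adjusted p under 0.05 by limma, beside 6.16% and 4.68% of all features. At unadjusted p under 0.05 by limma it was negative for 12 and positive for 1, and the shares of all features at that threshold were not counted. ISG15 had -0.80, RIGI -0.76, IRF7 -0.45 and IFIH1 -0.39. The calls of DHX58 (-0.34), IRF9 (-0.31), JAK1 (-0.28) and EIF2AK2 (-0.22) were lost in some alternatives. The list's median was -0.15, against -0.03 for all features. JAK1 combined this with a fall in the knockout, unlike the 4 members, which rose.

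**Figure D5:**
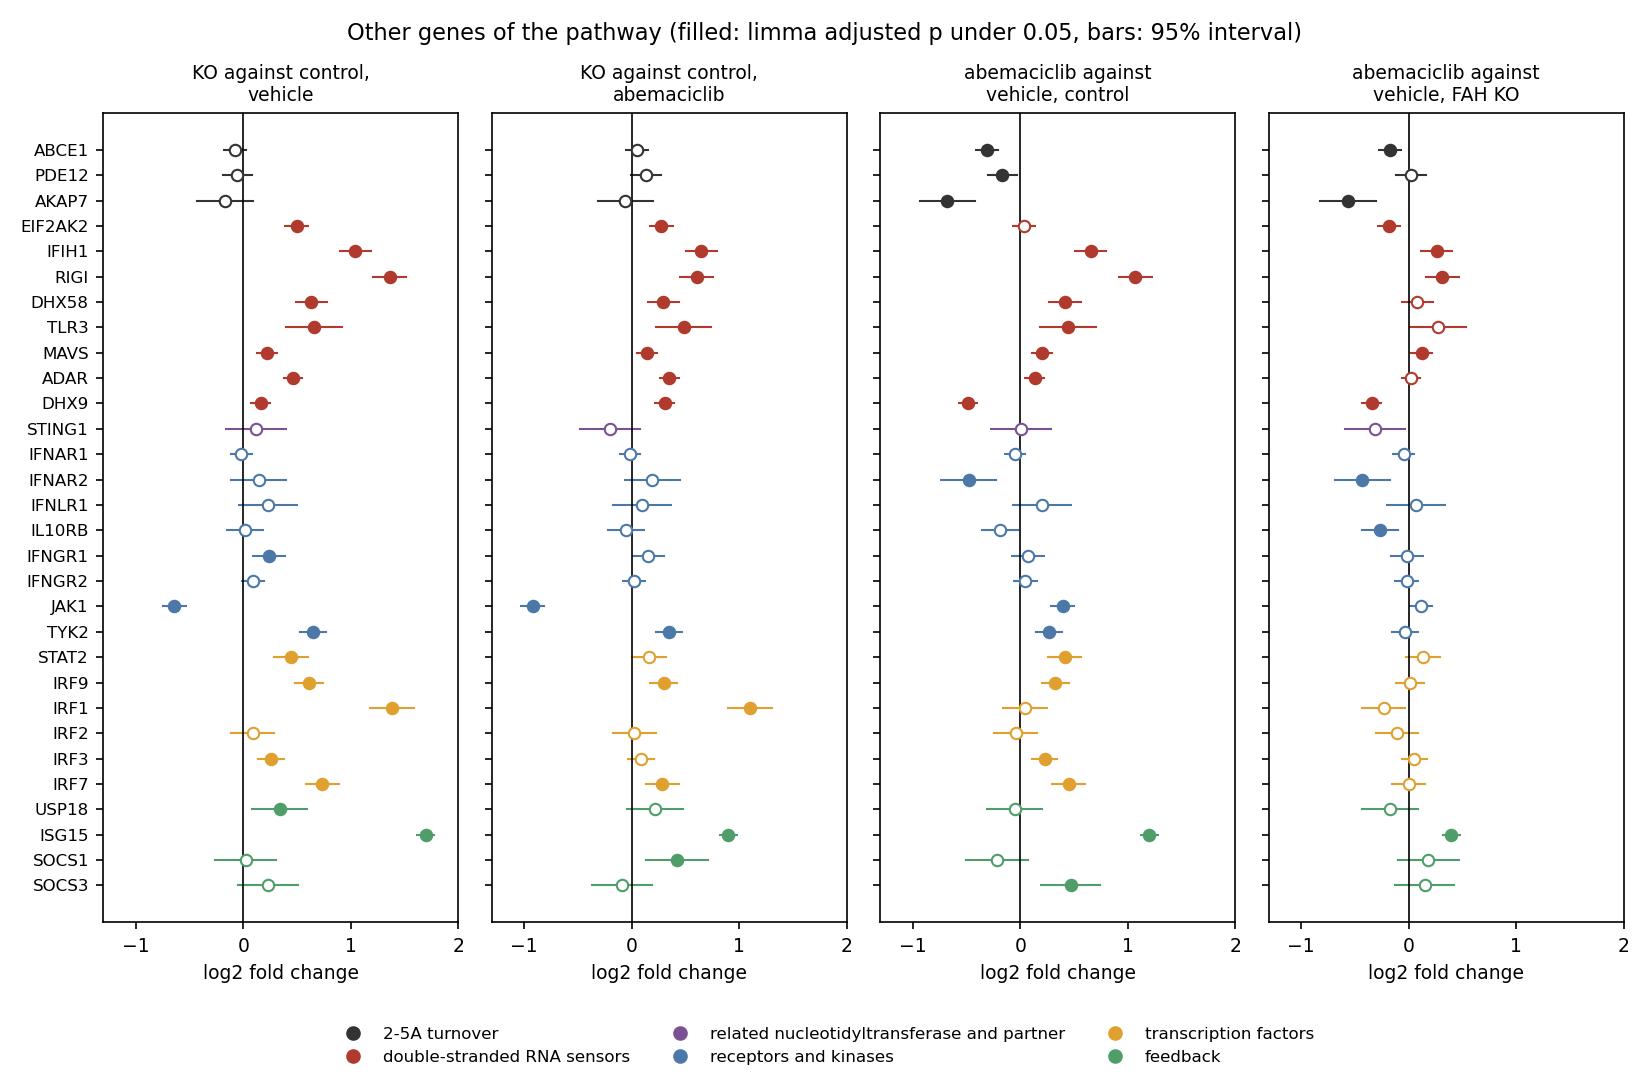
Log2(CPM + 1) differences of 30 of the 32 tested pathway genes by role, in the 4 comparisons, with 95% intervals as bars and filled points for an adjusted p under 0.05 by limma. The RNA sensors and most transcription factors lie above 0 in the knockout, while the genes of 2-5A turnover have open points there. Of all features 37.7% were called in the knockout under vehicle and 29.9% under abemaciclib.

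Interferon genes themselves were near or at 0. IFNA1, IFNA2, IFNW1, IFNE and IFNK were listed at 0 CPM in all libraries, and IFNB1 reached at most 0.183 CPM. IFNL1, a type III interferon, was the highest, with 0.0943 to 0.771 CPM from 1 to 8 reads a library. Its means were 0.149 CPM in control cells with vehicle, 0.369 with abemaciclib, 0.518 in knockout cells and 0.289 with both. It did not pass the filter and was not tested.

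The chromosomal neighbours of the members were described in the same fit. Of 20 protein-coding neighbours, 5 on each side of a member with repeats counted once, 16 were tested. In the knockout under vehicle 4 of them were higher and none lower, near the 24.6% of all features called higher. Their differences ran from -0.10 to 0.28, against 1.08 to 1.87 for the members. With abemaciclib in control cells 4 neighbours were higher and 4 lower, beside 19.6% and 31.1% of all features. The neighbours ran from -0.24 to 0.23, a range that holds the 0.20 of OAS3. In knockout cells with abemaciclib they ran from -0.31 to 0.24, which holds the values of OAS1 and OAS3. RPH3A, beside OAS1, was listed at 0 in all libraries.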

How the data were processed

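T47D RNA was measured in 16 libraries, which their titles put into 4 groups of 4. Extraction, cDNA and tagmentation were done by a commercial service, per the labels' protocols. STAR 2.7.11, SAMtools 1.22.1, featureCounts of Subread 2.1.1, MultiQC 1.32 and the genome GRCh38 are named per the submitters' processing notes. Neither the annotation release nor the treatment of strand and of reads with several matches is given in the sources used here. The deposited values are CPM, made by the authors for 78986 features, and each column sums to 1000000. The 92 ERCC spike-in features were left out.

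The step between low values gave the worth of 1 read and so the depth. Since only part of the values were whole reads, no count test was run. CPM were taken to log2(CPM + 1), and limma 3.58.1 (R 4.3.3) was fitted to the features that reached 1 CPM in 4 or more libraries, using 4 group means, a trended empirical Bayes step and Benjamini-Hochberg adjustment over all tested features. A call is an adjusted p under 0.05, and tests are two-sided. Exact permutation tests were run with SciPy 1.17.1 in Python 3.11.15. Scripts were tested on simulated data. Promoter windows and gene positions came from RefSeq tables of GRCh38.p14. Motifs were searched on both strands.

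The text names the 4 members, FAH, genes of the pathway list, neighbours and the genes most like each member. A few genes are not reported here. The members and lists were chosen with earlier results of these data known. Alternatives were other pseudocounts, filters and scalings, no trend, a replicate block, fits of only the groups compared, and each library left out.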

Additional observations from a re-analysis of the deposited data

Results flagged for a closer look

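The interaction of knockout and abemaciclib differed from 0 for all 4 members by limma, at -0.57 for OAS1, -0.90 for OAS2, -0.39 for OAS3 and -0.64 for OASL on the log2(CPM + 1) scale. The signed abemaciclib effect was thus higher in control cells than in knockout cells for each gene, and for OAS3 it was 0.20 in the former and -0.19 in the latter. Both OAS3 changes had an exact two-sided permutation p of 0.0571. The OAS3 fall no longer passed after rescaling (-0.10, limma, adjusted p = 0.108). OAS3 in knockout cells with vehicle had 1 library that stood apart: replicate 1, at 87.8 CPM against 99.2 to 101 CPM in the other libraries, with a gap to its nearest neighbour of 0.862 of the group's range. Small groups hold such a library by chance at times. Without it the OAS3 differences were 1.13 for the knockout under vehicle, -0.24 for abemaciclib in knockout cells and -0.44 for the interaction, and no call changed.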

How the results depend on the processing

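Of 596 alternative values for the members 590 kept their direction and their side of the threshold, and 6 did not. All 384 that left out 1 library kept both. The 6 came from scaling. Abemaciclib in knockout cells gave OAS1 0.19 after median-of-ratios rescaling and 0.19 after quantile normalization, now past the threshold, and OAS3 -0.10 and -0.11, no longer past it. Under quantile normalization, knockout with vehicle against control with abemaciclib gave OAS2 -0.16, now past the threshold, and OASL 0.20, no longer past it. For the pathway list, 6 genes rather than 10 had a negative interaction with no filter, beside 1.31% rather than 6.16% of all features. In the knockout under vehicle 2 rather than 1 were lower after rescaling, and 2 after quantile normalization. The shares of all features lower there were 18.4% and 17.4%, rather than 13.1%. Abemaciclib in knockout cells gave 5 higher and 6 lower on the deposited scale. After rescaling these were 9 and 3, beside 19.6% and 17.8% of all features. Quantile normalization gave 10 and 3, beside 22.1% and 16.7%. The cause was not tested. With a pseudocount of 0.1, 16 of the 24 pair differences passed, and 17 on the reported scale. The pair lost was OAS1 over OASL in the knockout under vehicle.

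Replicate numbers did not pair the libraries: over 24 same-number pairs the correlation of deviations ran from -0.04 to 0.06, and 4 of 16 libraries correlated best with their own number. With the replicate block, OAS1 in the knockout under vehicle was 1.87 (limma, adjusted p = 3.8e-20) and the block changed no call for the members. Depth limits what can be said of the interferon genes, whose values rest on few reads.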

Other observations

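The genes whose log2(CPM + 1) values followed each member most closely over the 16 libraries were named among 10335 genes with a mean of at least 5 CPM. Pearson's r is a description here, since the points fall into 4 groups and share their libraries. OAS1 was most like IFIT3 (0.996), ARRDC1 (0.993), OPTN (0.992), ZNF703 (0.991) and HERC6 (0.982), of which IFIT3 and HERC6 are interferon-stimulated genes. Among those most like OAS2 were JUND (0.983), IRS1 (0.983), CALCOCO1 (0.981) and SLC12A9 (0.980). OAS3 was most like GLUL (0.980), PLSCR1 (0.976), IFITM3 (0.973), NFKB1 (0.972) and ZNF703 (0.971). OASL was most like MX1 (0.986), ENSG00000288684 (0.986), RIGI (0.984), ISG15 (0.983) and SLC22A23 (0.983). RIGI had whole reads in only 1 library, and whether reads were divided between it and ENSG00000288684 was not tested.

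Among the members themselves, OAS2 and OASL had an r of 0.958, OAS1 and OAS3 0.953, and OAS2 and OAS3 the lowest, 0.709. The adjacent genes OAS3 and OAS2 were thus the least alike pair, and OASL, far away on the chromosome, was the closest to OAS2. Of the tested pathway genes with a promoter window in the RefSeq table, 5 held an ISRE match (GAAA, any 2 bases, GAAA) (EIF2AK2, IFIH1, TLR3, ISG15 and SOCS1), and 4 of them were higher in the knockout under vehicle. Of the 18 without a match 9 were higher and 1 lower, and 24.6% of all features were higher. The difference between those with and without a match was not tested.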
